A study of Mus musculus with 6 samples.

Results

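Ubiquitin-conjugating enzymes, known as E2 enzymes, were examined as a family in mouse fetal liver cells that had been left to mature along the red cell lineage. The family was taken as every protein-coding gene of the GENCODE M21 annotation (assembly GRCm38) whose symbol starts with Ube2, leaving out Ube2l6. This gave 36 of the 54232 genes listed in the count files, and 32 of them passed the filter on low counts that left 16150 genes to test. One of the 36, Ube2cbp, matches by name alone: it encodes a protein that binds UBE2C and is not itself a conjugating enzyme of the E2 fold.

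The study measured total RNA in 6 libraries of C57/B6 mouse fetal liver cells, labelled as progenitor cells. Cells were taken from livers of embryos at stage E13.5 and depleted of cells bearing Ter-119, a surface protein of maturing red cells. The 3 day 0 libraries come from these cells with no treatment, and the 3 libraries at 30 h from cells kept in medium with erythropoietin (EPO), the hormone that drives red cell maturation, with the solvent DMSO added at 24 h for the last 6 h. Time, EPO culture and DMSO therefore separate the groups together and cannot be told apart. Nothing in the labels says whether the libraries of a group are separate livers or cultures, so p-values measure the spread between these samples, which may be technical.

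Library totals ran from 19241780 to 29949173 counts. The 3 day 0 libraries lay close together, whereas 30 h replicate 3 stood apart from replicates 1 and 2: the chi-square per degree of freedom between libraries was 4.02 to 5.55 within day 0, 11 between 30 h replicates 1 and 2, and 88.6 and 48.8 between each of these and replicate 3. Erythroid markers rose, with 8 of 8 genes found higher and a summed level of 1068 to 1139 CPM (counts relative to the TMM-scaled library total) at day 0 against 15770 to 19180 CPM at 30 h. Markers of other cells in the starting population fell: 7 of 7 of hepatoblasts (12600 to 14160 CPM against 751 to 2203 CPM), 6 of 6 of endothelium (156 to 181 CPM against 28.3 to 35.4 CPM) and 6 of 6 of mesenchyme (1452 to 1854 CPM against 17.5 to 37.3 CPM). Of the other lists, 3 of 6 macrophage markers were higher and 1 lower, 1 of 5 megakaryocyte markers higher and 2 lower, 3 of 5 granulocyte and mast cell markers lower and 2 of 4 B lymphoid markers lower. For all marker lists, the background is 34.4% higher and 40.1% lower among all genes tested, at an adjusted p under 0.05 in edgeR. The mixed counts of these other lists are therefore not set apart from the background. No marker was at 0 in all 30 h libraries. Their part in the changes of the Ube2 genes was not tested, and in such bulk samples fewer cells of a type and less RNA per cell cannot be told apart.

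Ubiquitin reaches its targets in a relay. An E1 enzyme activates it, an E2 enzyme carries it on a cysteine, and an E3 ligase brings the loaded E2 to the substrate; the E2 often decides whether 1 ubiquitin or a chain is attached and which kind of chain is built. A few members of the family carry relatives of ubiquitin instead, such as NEDD8. In maturing red cells this system is known for clearing organelles and most proteins other than haemoglobin, and Ube2o and Ube2h are the E2 enzymes best known to be induced there.

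The promoters of Ube2c and Ube2h are shown because these genes, with Ube2o, were picked to be read against the family. Ube2c is known from cell division and Ube2h from red cell maturation. Neither had the largest rise of the family. RefSeq sequence (GRCm38.p6) was at hand for 40 start sites of 29 of the 36 genes, and not for Ube2o, Ube2d2a, Ube2e3, Ube2g2, Ube2v2 or Ube2w, among others. Each line runs 5′ to 3′ along the gene's strand from base 250 to base 11 before the RefSeq start. For Ube2c the GENCODE gene begins earlier, at 164769898, so the end of its line lies inside that gene. Its matches to TTTGAA and GGGCGG fall in this end. Capitals mark matches on either strand to GATAA (as in sites of GATA factors), CCNCNCCC (Krüppel-like factors), TTTGAA (the cell cycle element called CHR), CCAAT (the factor NF-Y) or GGGCGG (the factor Sp1). Matches to the motif of Krüppel-like factors and that of Sp1 can overlap.
Ube2c, chr2:164769679-164769918, plus strand: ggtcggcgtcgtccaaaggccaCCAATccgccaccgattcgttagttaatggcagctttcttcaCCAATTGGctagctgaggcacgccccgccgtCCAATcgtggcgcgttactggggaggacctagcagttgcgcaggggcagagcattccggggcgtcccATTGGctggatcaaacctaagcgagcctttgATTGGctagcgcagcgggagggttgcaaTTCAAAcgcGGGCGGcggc
Ube2h, chr6:30304550-30304789, minus strand: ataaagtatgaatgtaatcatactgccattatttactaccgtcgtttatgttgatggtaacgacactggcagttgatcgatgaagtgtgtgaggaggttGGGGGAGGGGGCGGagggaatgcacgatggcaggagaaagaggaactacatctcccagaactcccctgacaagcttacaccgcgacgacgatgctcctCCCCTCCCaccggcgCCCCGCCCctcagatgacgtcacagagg

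The Ube2c promoter held 6 matches to CCAAT, 1 to TTTGAA and 1 to GGGCGG, and no match to the other motifs. The Ube2h promoter held 5 matches to CCNCNCCC and 2 to GGGCGG, and no match to the others; a second Ube2h start site within the gene had 1 match to GATAA and 1 to CCNCNCCC. Ube2t had 3 matches to CCAAT and 2 to CCNCNCCC, and Ube2s had 2 each to CCNCNCCC and GGGCGG. Across the 40 windows of the family, 80.0% held CCNCNCCC and 67.5% held GGGCGG, against 45.9% and 32.7% of all 32851 RefSeq windows of the same length. GATAA was in 12.5% against 22.6%, TTTGAA in 10% against 15.99%, and CCAAT in 22.5% against 33.9%. Windows of the same gene can overlap, as some of the 4 of Ube2d3 do, so 1 match can be counted more than once. The 40 windows are therefore not separate promoters. These are matches of letters, not measured sites.

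At 30 h, 17 of the 32 tested genes were higher than at day 0 and 7 were lower, at an adjusted p under 0.05 in edgeR's quasi-likelihood test fitted on all genes. That is 75.0% of the family called, beside 74.5% of all genes tested, so the share of genes that changed was that of the background. The split by direction was 53.1% higher and 21.9% lower in the family, beside 34.4% and 40.1% of all genes. The libraries of the 2 groups did not overlap in 27 of the 32 genes, beside 79.7% of all genes tested. The median log2 change was 0.38 in the family and -0.09 over all genes tested, a gap of 0.48. Scaling by library totals alone, in place of TMM scaling, moved the median of all genes to -0.58 and gave 9 higher and 15 lower family members, with a family median of -0.11 and a gap of 0.47. When a trend on gene GC content was removed, the median of all genes moved to 0.18 and the gap fell to 0.25. Directions below are relative to TMM scaling, and a called gene whose direction turns under another scaling or with the GC trend removed is named with that value.

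Summed over the family, the share of each library's counts was 0.274% ± 0.0005 in the day 0 group and 0.298% ± 0.0013 in the 30 h group (mean ± SD, n = 3 each), with no overlap between groups (two-sided exact permutation test, p = 0.1, the smallest that 3 against 3 allows). With globin genes left out of the totals the shares were 0.274% and 0.333%. The means differed by 0.0243 percentage points, measured on library totals without TMM scaling. On the TMM scale, single members moved between a 5.18-fold fall (Ube2ql1) and an 8.05-fold rise (the low-count Ube2v1). These values are on different scales, so the small difference of shares does not show that the family sum was constant on the TMM scale.

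**Figure D1:**
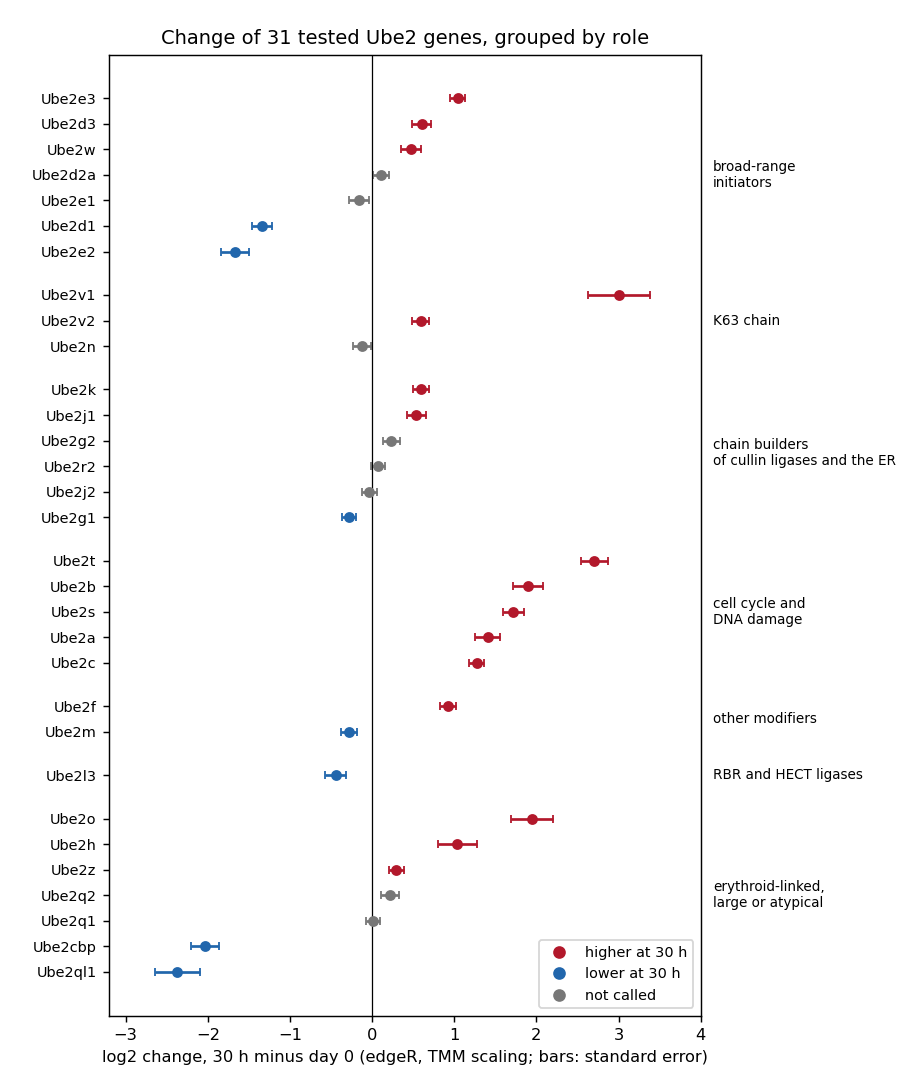
Log2 change from day 0 to 30 h (x axis, edgeR with TMM scaling) of 31 of the 32 tested Ube2 genes (y axis, grouped by role), with bars of 1 standard error; red is higher, blue lower and grey not called at an adjusted p of 0.05. All 5 genes of the cell cycle and DNA damage group lie to the right of 0, while the other groups hold genes on both sides or, for Ube2l3, 1 gene on the left.

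Of the genes grouped here under cell cycle and DNA damage, 5 of 5 were higher, beside 34.4% of all genes tested. Their median log2 change was 1.72. Ube2n, which also serves DNA repair, is placed in another group below and was not called (-0.13). Ube2c (chromosome 2, 164769898 to 164778822, plus strand, GRCm38) encodes the E2 that starts ubiquitin chains on substrates of the anaphase-promoting complex (APC/C), the ligase that ends mitosis. It read 172, 178 and 173 CPM at day 0 and 450, 412.5 and 399 CPM at 30 h, a rise with no overlap and little spread. The log2 change was 1.27 ± 0.09 (SE; 2.42-fold, edgeR adjusted p = 9.33e-06). A neighbouring gene on the opposite strand, Tnnc2, covers 22.8% of the exon bases of Ube2c and had 0 counts in all 6 libraries. Whether counting used the strand is not given, so reads of shared exons may have been dropped from both genes. The 0 of Tnnc2 therefore cannot show that Ube2c lost no reads.

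Ube2s extends the chains that Ube2c begins. It read 23.7, 23.9 and 27.8 CPM at day 0 and 77.4, 77.6 and 93.5 CPM at 30 h. It rose by 1.72 ± 0.12 on the log2 scale (edgeR adjusted p = 9.57e-06), and its lowest 30 h library was well above the highest at day 0. Per kilobase of exon, Ube2s made up 6.80% ± 0.64 of the sum of Ube2c and Ube2s at day 0 and 9.10% ± 1.34 at 30 h (n = 3 each, no overlap, two-sided exact permutation p = 0.1), so Ube2c remained the larger of the pair in every library.

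Ube2t, the E2 of the Fanconi anaemia pathway that repairs DNA crosslinks, had the largest rise apart from the low-count Ube2v1. Its levels were 23.1, 23.1 and 22.2 CPM at day 0 and 128, 133 and 186 CPM at 30 h. The log2 change was 2.71 ± 0.16 (6.53-fold, edgeR adjusted p = 4.20e-06). All 3 libraries at 30 h were high, replicate 3 most of all.

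Ube2a and Ube2b are the mouse forms of yeast RAD6; they mark histone H2B with Rnf20 and Rnf40, and the sliding clamp PCNA with Rad18. Ube2b read 79.7, 71.3 and 79.2 CPM at day 0 and 231.5, 256 and 373 CPM at 30 h, and rose by 1.90 ± 0.18 on the log2 scale (edgeR adjusted p = 4.28e-05). Ube2a read 50.7, 47.6 and 47.7 CPM and then 111, 115 and 161 CPM, and rose by 1.41 ± 0.15 (edgeR adjusted p = 8.35e-05). Both were highest in 30 h replicate 3, as was Ube2t. Of the sum of both genes per kilobase, Ube2b held 62.7% ± 1.2 at day 0 and 70.2% ± 1.1 at 30 h (n = 3 each, no overlap, two-sided exact permutation p = 0.1).

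**Figure D2:**
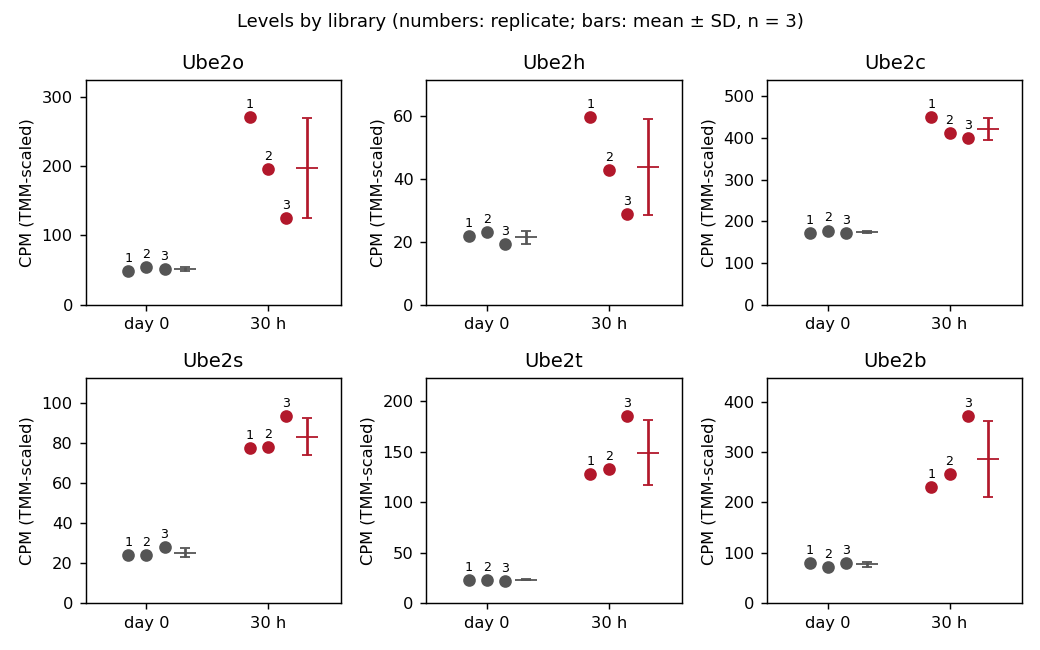
TMM-scaled CPM (y axes, linear, from 0) of Ube2o, Ube2h, Ube2c, Ube2s, Ube2t and Ube2b in each library, with the replicate number above each point and the mean ± SD (n = 3) beside each group. The 3 libraries at 30 h lie above the 3 at day 0 in all 6 panels; replicate 1 is the highest for Ube2o, Ube2h and Ube2c and replicate 3 for Ube2s, Ube2t and Ube2b.

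Ube2o and Ube2h, the E2 enzymes tied to red cell maturation, both rose, and both varied more between the 30 h libraries, relative to their level, than Ube2c did. Ube2o (chromosome 11, 116537740 to 116581447, minus strand) encodes a large enzyme that acts as E2 and E3 in one, known for removing unassembled ribosomal and globin proteins in reticulocytes. It read 48.1, 54.2 and 51.6 CPM at day 0 and 271, 196 and 126 CPM at 30 h. Every 30 h library lay above every day 0 library, and replicate 1 had more than replicates 2 and 3. The log2 change was 1.95 ± 0.25 (3.85-fold, edgeR adjusted p = 0.00021), and it was 1.70 without 30 h replicate 1, 2.19 without replicate 3 and 2.71 with the GC trend removed.

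Ube2h (chromosome 6, 30211289 to 30304539, minus strand) works with the CTLH ligase, the mammalian GID complex. It was the lower of the pair, at 22.0, 23.0 and 19.2 CPM at day 0 and 59.7, 42.9 and 29.0 CPM at 30 h. The groups did not overlap, although 30 h replicate 3 lay closer to the day 0 libraries than to 30 h replicate 1. The log2 change was 1.04 ± 0.24 (2.05-fold, edgeR adjusted p = 0.00469). It was 0.80 without 30 h replicate 1 and 1.27 without replicate 3, and with library totals as the only scaling it was 0.55 and not called (edgeR adjusted p = 0.0723). The counting also limits this gene: 46.3% of its 50-base exon windows occur elsewhere, nearly all in the non-coding gene Gm26526. That gene had 1, 3 and 1 counts at day 0 and 2, 1 and 1 at 30 h, so few reads were assigned to it. Reads that match both genes may still have been dropped from Ube2h, which these counts cannot show.

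Among these 3 genes Ube2c had the smallest standard error and Ube2o the largest change. Slc4a1, the band 3 protein of the red cell membrane, read 6602, 5137 and 3071 CPM in 30 h replicates 1, 2 and 3, the same order of libraries as Ube2o and Ube2h. Whether the 30 h libraries differ in how far their cells had matured was not tested.

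The remaining large or atypical members were split. Ube2z, which receives ubiquitin from Uba6 and not from Uba1, was higher by 0.29 ± 0.09 (edgeR adjusted p = 0.0203); with library totals alone it read -0.19, and upper quartile scaling (0.16) or keeping low-count genes (0.20) ended the call, as did leaving out any day 0 library or 30 h replicate 2. Ube2q1 read 112, 112 and 112 CPM at day 0 and 116, 115 and 107 CPM at 30 h, and was not called (0.01 ± 0.09, edgeR adjusted p = 0.941). Ube2q2 was not called either (0.22 ± 0.11, edgeR adjusted p = 0.107), and 20.9% of its exon windows are shared with the pseudogene Gm4895. Both were called higher with the GC trend removed (0.41 and 0.44) and lower with library totals alone (-0.48 and -0.27), and Ube2q2 also higher without 30 h replicate 1 (0.35).

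With TMM scaling this group held the deepest falls of the family. Ube2ql1, a relative of Ube2q1 with few known functions, read 4.33, 4.16 and 5.19 CPM at day 0 and 0.543, 1.25 and 0.881 CPM at 30 h. It fell by 2.37 ± 0.28 on the log2 scale (edgeR adjusted p = 0.000113). With the GC trend removed its change was -1.41, and Ube2e2 of the broad-range initiators then fell deepest (-1.83), ahead of Ube2cbp (-1.70). Ube2cbp, the binding protein named above, read 11.7, 10.6 and 13.3 CPM and then 2.57, 3.46 and 2.71 CPM, and fell by 2.03 ± 0.17 (edgeR adjusted p = 2.06e-05). Neither gene's groups overlapped. Both fell in the libraries in which the hepatoblast, endothelial and mesenchymal markers fell, and the part of those cells was not tested.

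Ube2u, a member with little known of its role, had 8, 3 and 1 counts in the day 0 libraries and none at 30 h, too few to test.

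The broad-range initiators work with many RING ligases and usually add the first ubiquitin. Of 7 tested, 3 were higher and 2 lower (42.9% and 28.6%), beside 34.4% and 40.1% of all genes tested. The share called was 71.4%, beside 74.5% of all genes, so it was near the background. Called members of the D and E subfamilies went in both directions. In the D subfamily, Ube2d1 read 20.5, 23.2 and 21.6 CPM at day 0 and 7.99, 8.46 and 9.38 CPM at 30 h, and fell by 1.34 ± 0.12 (edgeR adjusted p = 2.50e-05). Ube2d3 read 217, 210 and 221 CPM and then 296, 307 and 382 CPM, and rose by 0.60 ± 0.12 (edgeR adjusted p = 0.00201). Ube2d2a, at 57.3 CPM on average at day 0 and 61.7 CPM at 30 h, was not called (0.11 ± 0.10, edgeR adjusted p = 0.345) and its groups overlapped; it was called lower with library totals alone (-0.38) and with the GC trend removed (-0.26). The rise of Ube2d3 was no longer called with library totals alone or with the GC trend removed.

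Within the D subfamily, per kilobase of exon, the share of Ube2d1 was 26.5% ± 1.4 at day 0 and 9.55% ± 0.36 at 30 h, and that of Ube2d3 was 47.1% ± 1.6 and 64.6% ± 1.5 (n = 3 each, no overlap, two-sided exact permutation p = 0.1 for both). The share of Ube2d2a was 26.4% ± 0.8 and 25.9% ± 1.1, with overlap (p = 0.5 in the same exact test). The annotated exons of Ube2d3 span 24499 bases, which lowers its level per kilobase.

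In the E subfamily Ube2e3 was the main form and gained. It read 115, 112 and 115 CPM at day 0 and 249, 223 and 234.5 CPM at 30 h, and rose by 1.04 ± 0.09 (2.06-fold, edgeR adjusted p = 2.22e-05). Ube2e2 read 8.51, 8.95 and 7.92 CPM and then 2.66, 3.16 and 2.14 CPM, and fell by 1.67 ± 0.17 (edgeR adjusted p = 5.43e-05). Ube2e1 was not called (-0.16 ± 0.12, edgeR adjusted p = 0.245); it was called lower without 30 h replicate 3 (-0.26), with library totals alone (-0.65) and with the GC trend removed (-0.37). Per kilobase, Ube2e3 held 70.6% ± 0.3 of the subfamily at day 0 and 86.1% ± 1.7 at 30 h (n = 3 each, no overlap, two-sided exact permutation p = 0.1).

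Ube2w, which can attach ubiquitin to the N-terminus of a protein, was higher by 0.47 ± 0.12 (edgeR adjusted p = 0.00771), with -0.02 under library totals alone and no call under upper quartile scaling or once the GC trend was taken out. Ube2d2b had 1 count at day 0 and 4 at 30 h in all, and the X-linked Ube2dnl1 and Ube2dnl2 had 0 counts in every library. A count of 0 allows up to 3 counts, or 0.1 to 0.156 CPM before TMM scaling in these libraries, for counting error alone.

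**Figure D3:**
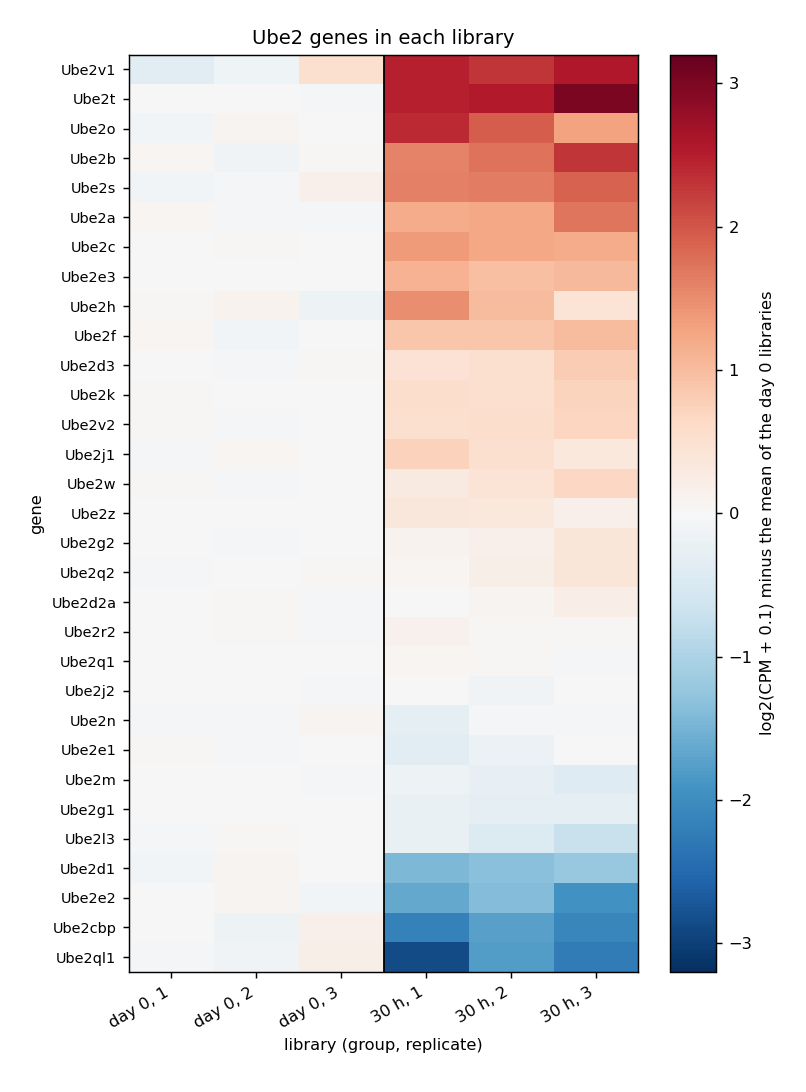
Log2(CPM + 0.1) of the same 31 tested Ube2 genes (rows, ordered by fitted change) in each library (columns), as the difference from the mean of the 3 day 0 libraries (colour scale from -3.2 to 3.2). The day 0 columns are close to 0 except for the low-count Ube2v1, and the 30 h columns run from red at the top to blue at the bottom; Ube2o and Ube2h are strongest in replicate 1 and palest in replicate 3, while Ube2t, Ube2b and Ube2a are strongest in replicate 3.

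Ube2n and its 2 inactive partners build chains linked through lysine 63 of ubiquitin, used in signalling and DNA repair rather than for degradation. Ube2n itself read 31.2, 32.1 and 35.1 CPM at day 0 and 27.0, 31.4 and 31.98 CPM at 30 h and was not called (-0.13 ± 0.11, edgeR adjusted p = 0.33). It was called lower with library totals alone (-0.62) and with the GC trend removed (-0.35). Ube2v2 was higher, at 13.9, 13.0 and 13.8 CPM and then 19.2, 20.1 and 21.9 CPM, a log2 change of 0.59 ± 0.11 (edgeR adjusted p = 0.00121) that was no longer called with library totals alone or with the GC trend removed. Ube2v1 gave the largest fitted change of the family (3.01 ± 0.38, edgeR adjusted p = 0.000173), on only 3, 4 and 8 counts in the day 0 libraries and 25, 18 and 21 in those at 30 h. Of its exon windows 91.2% occur in another gene, 81.6% in the read-through gene Gm20431, so its level is uncertain.

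Of 6 tested chain builders that serve cullin ligases and the endoplasmic reticulum (ER), 2 were higher, 1 lower and 3 not called. That is 33.3% higher and 16.7% lower, beside 34.4% and 40.1% of all genes tested. None of the 6 moved by as much as 2-fold, beside 7988 of the 16150 genes tested that did. With the GC trend removed all 6 were called, Ube2g1 lower (-0.49) and the other 5 higher, from 0.33 for Ube2j2 to 0.72 for Ube2g2. Ube2k, which builds the degradative chain type on its own, read 150, 143 and 143 CPM at day 0 and 215, 206 and 239 CPM at 30 h and rose by 0.60 ± 0.10 (edgeR adjusted p = 0.000637). Ube2j1 is anchored in the ER membrane and serves degradation there. It read 61.2, 65.4 and 62.3 CPM and then 104, 90.0 and 79.7 CPM, and rose by 0.54 ± 0.12 (edgeR adjusted p = 0.00364). With library totals alone neither was called.

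Ube2j2, the other membrane-anchored form, was not called (-0.03 ± 0.09, edgeR adjusted p = 0.755), and of both together per kilobase Ube2j1 held 52.2% ± 0.7 at day 0 and 61.7% ± 3.3 at 30 h (n = 3 each, no overlap, two-sided exact permutation p = 0.1). Ube2g1 was lower by a small and tight margin, at 109, 108 and 109 CPM and then 91.9, 87.4 and 88.3 CPM. It fell by 0.28 ± 0.09 (edgeR adjusted p = 0.0165), a call lost when any day 0 library or 30 h replicate 2 was left out. Ube2g2, which serves degradation at the ER, was not called (0.23 ± 0.10, edgeR adjusted p = 0.0738) although its groups did not overlap; it was called higher without 30 h replicate 1 (0.35) or replicate 3 (0.15), higher once the GC trend was removed (0.72), and lower with library totals alone (-0.26). Ube2r2, a partner of cullin ligases, was not called (0.07 ± 0.09, edgeR adjusted p = 0.472). With library totals alone Ube2r2 (-0.42) and Ube2j2 (-0.52) were called lower.

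The NEDD8 enzymes Ube2m and Ube2f were called in opposite directions. Ube2m, which loads NEDD8 onto most cullins with Rbx1, read 218, 217.5 and 212 CPM at day 0 and 193, 179.5 and 162 CPM at 30 h, and was lower by 0.28 ± 0.10 on the log2 scale (edgeR adjusted p = 0.0317). This direction turned when the GC trend was removed (1.02), and the call was lost when any day 0 library or 30 h replicate 2 was left out. Ube2f, the second NEDD8 enzyme, which serves cullin 5 with Rnf7, read 50.3, 45.3 and 48.3 CPM and then 88.3, 88.0 and 96.6 CPM. It rose by 0.92 ± 0.10 (edgeR adjusted p = 5.79e-05). Ube2f made up 5.59% ± 0.29 of the pair per kilobase at day 0 and 12.1% ± 1.5 at 30 h (n = 3 each, no overlap, two-sided exact permutation p = 0.1).

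Ube2l3, which hands ubiquitin only to ligases of the RBR and HECT classes, read 149, 156.5 and 152 CPM at day 0 and 130, 113 and 93.2 CPM at 30 h. It fell by 0.45 ± 0.13 (edgeR adjusted p = 0.014) with no overlap. The gene Ydjc lies on the opposite strand and covers 28.6% of its exon bases, and 54.7% of its exon windows. Ydjc fell by 2.10 on the log2 scale, and whether the authors counted by strand is not given, so reads of these 2 genes may not have been separated.

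Per kilobase of exon, the order of the members changed between the groups. At day 0 the highest was Ube2m (91.7 ± 1.5 CPM per kb, n = 3), followed by Ube2c (67.0 ± 1.2), Ube2g2 (41.2 ± 0.7), Ube2r2 (36.5 ± 0.8) and Ube2b (36.1 ± 2.2), of which the last 2 differed by less than their SD. At 30 h Ube2c was first (162 ± 10 CPM per kb) and Ube2b second (135 ± 36), which differed by less than the SD of Ube2b, ahead of Ube2m (75.6 ± 6.6), Ube2a (56.8 ± 12.2) and Ube2e3 (53.6 ± 3.0). Ube2o went from rank 15 (9.70 ± 0.58 CPM per kb) to rank 9 (37.4 ± 13.7), next to Ube2z (38.0 ± 2.7), from which it did not differ beyond its spread. Ube2t went from rank 26 to rank 10 (30.8 ± 6.7 CPM per kb) and Ube2h from rank 27 (4.48 ± 0.41 CPM per kb) to rank 20 (9.17 ± 3.22).

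As shares of the summed Ube2 level per kilobase, Ube2c took 11.7%, 12.1% and 11.8% in the day 0 libraries and 19.2%, 18.3% and 16.4% at 30 h. Ube2o took 1.604%, 1.82% and 1.73% and then 5.67%, 4.29% and 2.54%. Neither set of values overlapped (two-sided exact permutation p = 0.1 for each). For Ube2h the shares were 0.811%, 0.854% and 0.713% against 1.38%, 1.04% and 0.647%, and these overlapped (p = 0.4 in the same exact test). The difference of means for Ube2h was 0.23 percentage points, and 0.049 without 30 h replicate 1. Ube2m had the largest drop, from 16.2% ± 0.2 to 8.41% ± 0.93, and Ube2b the largest gain, from 6.39% ± 0.38 to 14.9% ± 3.4 (n = 3 each). Lengths matter for the sizes: with the median length of each gene's coding transcripts, a setting chosen after the data were seen, the gain of Ube2o was 0.80 percentage points in place of 2.45, and that of Ube2c 3.23 in place of 6.11.

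**Figure D4:**
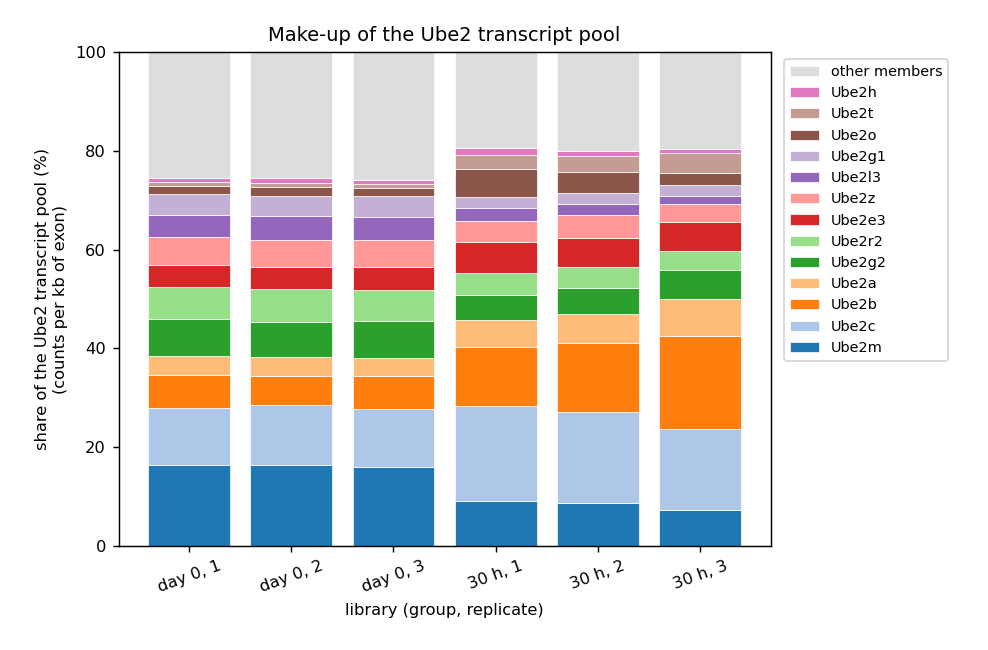
Share of the summed Ube2 level per kilobase of exon (y axis, percent from 0 to 100) in each library (x axis) for 13 genes, with the others in grey. Ube2m narrows most, from about the width of 16.2% at day 0 to 8.41% at 30 h. Ube2l3, Ube2r2, Ube2g1, Ube2g2 and Ube2z narrow as well. Ube2b, Ube2c, Ube2t, Ube2a, Ube2o and Ube2e3 widen, and the Ube2h shares overlap between the groups.

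The upstream and downstream partners of these enzymes were read from lists of genes with established links. Of 9 E1 genes, 2 were higher and 4 lower, with a median log2 change of -0.31. Uba1, which charges most E2 enzymes with ubiquitin and was the most abundant E1 per kilobase, read 905, 910 and 893 CPM at day 0 and 803, 687 and 376 CPM at 30 h; it was not called (-0.54 ± 0.24, edgeR adjusted p = 0.0784), with 30 h replicate 3 far below the other libraries. It was called lower in other settings, among them library totals alone (-1.02), the replicate block (-0.61) and leaving out 30 h replicate 3 (-0.27). Uba6, the second ubiquitin E1 and the one that charges Ube2z, fell by 1.52 ± 0.18 (edgeR adjusted p = 0.000119). Uba3, the catalytic subunit of the NEDD8 E1, rose by 1.46 ± 0.11 (edgeR adjusted p = 1.02e-05).

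Of the conjugating enzymes and relatives that do not carry the Ube2 name, 5 of 8 tested were higher and 2 lower, with a median of 0.44. Cdc34, the partner of SCF ligases and the most abundant per kilobase, rose by 0.79 ± 0.11 (edgeR adjusted p = 0.000304), a change that read 2.08 with the GC trend removed and 0.295 with library totals alone. Tsg101, an inactive relative that sorts membrane proteins for degradation, had the largest rise (0.91 ± 0.12, edgeR adjusted p = 0.000193), and Birc6, a giant E2 that blocks cell death, the largest fall (-0.66 ± 0.22, edgeR adjusted p = 0.0235). Removing the GC trend ended the call of Birc6, as did leaving out day 0 replicate 3 or 30 h replicate 2.

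The CTLH ligase, the partner of Ube2h, had 7 of 11 genes higher and 3 lower, with a median of 0.77. Ypel5 read 15.6, 15.4 and 16.02 CPM at day 0 and 221, 207 and 206 CPM at 30 h, a log2 change of 3.75 ± 0.10 (edgeR adjusted p = 2.44e-07). Gid8, the most abundant per kilobase, rose by 1.79 ± 0.09 (edgeR adjusted p = 1.97e-06). Its scaffold Ranbp10, named after its values were seen, read 36.5, 38.9 and 35.4 CPM and then 412, 343 and 241 CPM, a log2 change of 3.17 ± 0.20 (edgeR adjusted p = 5.19e-06). The catalytic RING subunits did not move as one: Maea fell by 0.36 ± 0.10 (edgeR adjusted p = 0.0128) and Rmnd5a rose by 1.04 ± 0.19 (edgeR adjusted p = 0.0012), both named after their values were seen. Rmnd5b, a close relative of Rmnd5a, had the largest fall of the list (-0.55 ± 0.13, edgeR adjusted p = 0.00475). With the GC trend removed the falls of Maea and Rmnd5b turned to 0.07 and 0.09 and were not called.

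For the APC/C, 9 of 17 genes were higher and 3 lower, with a median of 0.53. Fbxo5, its inhibitor in interphase, had the largest rise (1.598 ± 0.11, edgeR adjusted p = 8.16e-06) and Anapc1, its largest subunit, the largest fall (-0.76 ± 0.17, edgeR adjusted p = 0.00436). Cdc20, the activator used in mitosis and the most abundant per kilobase, was not called (0.16 ± 0.13, edgeR adjusted p = 0.281), at 243, 241 and 236 CPM and then 307.5, 271 and 225 CPM. It was called higher with the GC trend removed (0.71) or without 30 h replicate 3 (0.27), and read -0.33 with library totals alone.

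Of 15 tested NEDD8 and SUMO genes, 8 were higher and 3 lower (median 0.49). Nedd8, the most abundant per kilobase, rose by 0.91 ± 0.14 (edgeR adjusted p = 0.000657), and Rnf7, the partner of Ube2f, had the largest rise at 1.26 ± 0.20 (edgeR adjusted p = 0.00065). Dcun1d4, which helps Ube2m load cullins, fell by 1.30 ± 0.12 (edgeR adjusted p = 3.23e-05).

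The RBR ligases that use Ube2l3 had 5 of 10 tested higher and 3 lower (median 0.34). Rnf19a rose by 2.66 ± 0.13 (edgeR adjusted p = 1.75e-06), Rnf144a fell by 2.22 ± 0.17 (edgeR adjusted p = 1.14e-05), and Rbck1 of the linear chain complex, the most abundant per kilobase, was not called (-0.10 ± 0.10, edgeR adjusted p = 0.389). Rbck1 was called lower with library totals alone (-0.59) or upper quartile scaling (-0.24) and higher with the GC trend removed (0.87).

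Of 11 ligases and regulators that act with Ube2n, Ube2a, Ube2b or Ube2t, 8 were higher and 1 lower (median 0.64). Rnf168, which marks histones around DNA breaks, rose most (1.76 ± 0.10, edgeR adjusted p = 3.02e-06). Otub1, an inhibitor of Ube2n and the most abundant per kilobase, was the 1 that fell (-0.40 ± 0.09, edgeR adjusted p = 0.00308), and it read 0.17, not called, with the GC trend removed. The list of ER-associated degradation lacks Syvn1. Of its 7 genes 6 were higher and none lower (median 1.11), led by the ligase Rnf139 (1.502 ± 0.09, edgeR adjusted p = 4.63e-06). Beside these counts stand the 34.4% higher and 40.1% lower of all genes tested, and no list was tested against other genes.

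**Figure D5:**
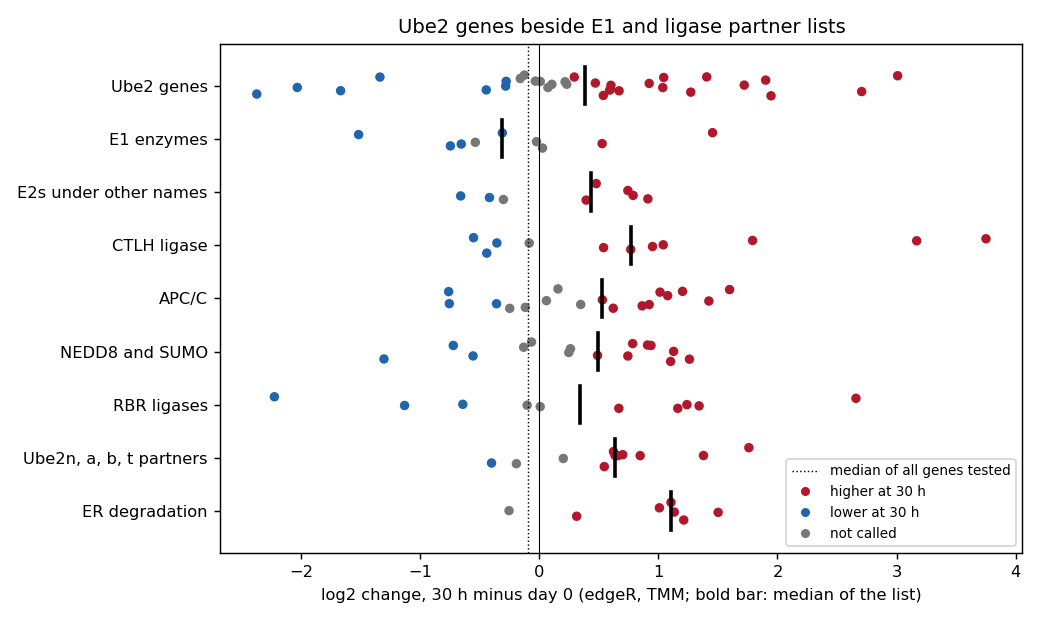
Log2 change from day 0 to 30 h (x axis, edgeR with TMM scaling) of each tested gene (points) of the Ube2 family and of 8 partner lists (y axis), with a bold bar at each list's median and a dotted line at the median of all genes tested (-0.09). The E1 median of -0.31 lies left of that line and the medians of the other lists lie right of it, from 0.34 for RBR ligases to 1.11 for ER degradation.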

How the data were processed

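For each library the authors deposited raw gene counts, with no normalization. The tools listed in the submitters' processing notes are cutadapt 1.13, STAR, HTSeq 0.6.1p1 and DESeq2, with build mm10; settings and strand are not given in the sources used here. Symbols, positions and exons came from GENCODE M21 (54165 of 54232 gene IDs matched). Genes passing edgeR's filterByExpr (16150) were fitted together with edgeR 4.0.16 (R 4.3.3): TMM scaling (factors 1.18 to 1.19 at day 0, 0.82 to 0.87 at 30 h), quasi-likelihood F test with robust fitting, Benjamini-Hochberg adjustment, threshold 0.05. The biological coefficient of variation was 5.27% within day 0 and 20.3% within 30 h. The code was tested on simulated data. Levels between genes are CPM per kilobase of merged exons; shares were set against each other with an exact permutation test, two-sided (scipy 1.17.1). Alternatives covered scaling, filter, test, GC content, replicate block and each library left out.

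The members and lists were chosen with earlier results of these data known. In each partner list the text names the largest rise, the largest fall and the most abundant gene per kilobase. 1 of 9 erythroid marker symbols and 1 of 8 ER degradation symbols matched no gene. The ER symbol was a misspelling of Syvn1, so that gene was left out of its list. Protein sequences were not used here. Some items that these rules name, 1 member among them, are not reported here.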

Additional observations from a re-analysis of the deposited data

How the results depend on the processing

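Of the 32 tested genes, 13 kept direction and call in all 16 alternatives: Ube2a, Ube2b, Ube2c, Ube2cbp, Ube2d1, Ube2e2, Ube2e3, Ube2f, Ube2o, Ube2ql1, Ube2s, Ube2t and Ube2v1. Among these the change of Ube2o ran from 1.46 to 2.71 and that of Ube2c from 0.78 to 1.82. Family counts were 9 higher and 15 lower with library totals only, and 10 and 4 when tested against a 1.5-fold change. With each library left out they ran from 16 to 19 higher and from 5 to 8 lower. Over all genes, 3601 were higher with library totals only. The replicate block left 16 higher and 5 lower members; the calls of Ube2g1, Ube2m and Ube2z were lost and no other member's call changed. Same-numbered libraries did not deviate together (correlations of -0.105, 0.105 and -0.029), so the numbers were not taken as pairs. The cause of these changes was not tested. Low counts limit the members left untested and Ube2v1, with 3 to 25 counts a library. For Ube2v1, 91.2% of exon windows also occur elsewhere.

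With library totals only, the family median was -0.107, Ube2h was 0.55 and not called, and the direction turned for Ube2d2a (-0.384), Ube2g2 (-0.261), Ube2q1 (-0.481), Ube2q2 (-0.274), Ube2r2 (-0.417), Ube2w (-0.020) and Ube2z (-0.194). With the GC trend removed it turned for Ube2m (1.016), Ube2d2a (-0.259), Ube2j2 (0.331) and the median of all genes (0.182). With upper quartile scaling it turned for Ube2d2a (-0.022), Ube2q1 (-0.129) and Ube2r2 (-0.063), with no filter for Ube2q1 (-0.086) and Ube2r2 (-0.020), with DESeq2 size factors for Ube2j2 (0.021) and with the DESeq2 test for Ube2q1 (-0.010). With each library left out, Ube2j2 ran from -0.063 to 0.007, Ube2n from -0.175 to 0.010 and Ube2q1 from -0.011 to 0.048. Of these genes, all but Ube2h, Ube2m, Ube2w and Ube2z were not called with TMM scaling and all libraries.

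Partner counts that moved with library totals only were E1 genes 1 higher and 7 lower, other E2 genes 2 higher, APC/C 6 lower, NEDD8 and SUMO 5 lower, RBR ligases 5 lower, partners of Ube2n, Ube2a, Ube2b and Ube2t 2 higher and 2 lower, and ER degradation 1 lower. Against a 1.5-fold change there were 1 higher and 2 lower E1 genes, 2 higher and 0 lower other E2 genes, 0 lower CTLH genes, 0 lower APC/C genes, 1 lower NEDD8 or SUMO gene and 3 higher and 0 lower partners of Ube2n, Ube2a, Ube2b and Ube2t. With the GC trend removed, lower counts were 1 for E1, 1 for other E2 genes, 0 for CTLH, 1 for RBR and 0 for the partners of Ube2n, Ube2a, Ube2b and Ube2t. Upper quartile scaling gave 5 lower APC/C genes, 2 lower partners of Ube2n, Ube2a, Ube2b and Ube2t, and 1 lower ER gene. The lower count of other E2 genes was 1 with DESeq2 size factors and 1 with the replicate block, and 0 to 2 with each library left out; that of ER genes was then 0 to 1.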
